A study of Mus musculus with 6 samples.

Results

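Enteroendocrine hormones are peptides that scattered secretory cells of the gut epithelium release in response to food. The genes followed here are Sct, Gip, Gcg, Nts, Sst, Cck, Pyy, Ghrl, Iapp and Tac1, which encode the precursors of such peptides. They were taken by gene symbol from the table of read counts, which lists 19616 genes. All 10 have a row in it, and all 10 passed the filter on low counts that left 15618 genes for testing. The RNA came from intestinal epithelial cells (IEC) of the jejunum, the middle stretch of the small intestine, enriched by EDTA, which loosens the epithelium from the tissue beneath.

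The libraries C1, C3 and C3-3 came from 3 wild-type control mice. The libraries H1, H5 and H9 came from 3 mice labelled villin-Cre Hdac1-/-; Hdac2-/-, in which Cre is driven by the villin promoter, active throughout the intestinal epithelium, and deletes floxed Hdac1 and Hdac2. All 6 mice were 3 months old, and the study's methods give the genetic background as mixed (C57BL/6J, 129SV and CD1). Hdac1 and Hdac2 encode closely related histone deacetylases, enzymes that remove acetyl groups from histones. The H libraries are named by their label below.

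Each enteroendocrine cell makes 1 or a few of these hormones, and the classical names of the cells follow them: S cells for secretin, K cells for GIP, L cells for proglucagon and peptide YY, N cells for neurotensin, D cells for somatostatin, I cells for cholecystokinin and X cells for ghrelin. The hormones are made as longer precursors that prohormone convertases cut in secretory granules, and are released into blood or onto neighbouring cells and nerves. They adjust pancreatic and gastric secretion, insulin release, gut movement and appetite. In RNA of a whole epithelial preparation, fewer cells of a type and less RNA per cell cannot be told apart, and this holds for every level below.

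Counts summed to 65902344 in C1, 62311942 in C3, 58017009 in C3-3, 65230566 in H1, 36111035 in H5 and 60418894 in H9. Levels are given in CPM, the counts of a gene relative to the size of its library after scaling by TMM (edgeR's factor for differences in RNA composition). A floor of 3 counts corresponded to 0.0405 CPM in H1 and 0.079 CPM in H5, the deepest and shallowest library after scaling, and covers counting error only. C3 was the only library with more than a few reads of the Y-linked genes Ddx3y, Eif2s3y, Kdm5d and Uty, with 3082 counts against 1 to 13 in the others. Results without C3 are covered by leaving out each library in turn.

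Hdac1, the targeted gene, measured 39.1 CPM in C1, 34.5 in C3 and 48.9 in C3-3, and 3.97 CPM in H1, 2.53 in H5 and 4.81 in H9. The groups were far apart, with a log2 fold change of -3.43 (SE 0.26, adjusted p = 2.9e-05, from edgeR by quasi-likelihood, adjusted by the Benjamini-Hochberg method across 15618 genes). Hdac2 measured 32.9, 23.6 and 26.5 CPM in C1, C3 and C3-3, and 26.6, 25.4 and 21.4 CPM in H1, H5 and H9. Its groups overlapped, and its log2 fold change of -0.18 (SE 0.17) did not pass the test (adjusted p = 0.44, edgeR). Gene-level counts include exons outside a deleted stretch, and the deleted exons are not given in the sources used here, so these counts do not check the Hdac2 label.

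Calls required a 2-fold difference or more together with an adjusted p no higher than 0.05. Of the 10 hormone genes, 3 were called higher in the H libraries (Sct, Iapp and Tac1), against 12.4% of all genes tested. A further 4 were called lower (Gip, Gcg, Nts and Sst), against 12.7% of all genes tested. The remaining 3 (Cck, Pyy and Ghrl) were not called. The C and H libraries did not overlap for 8 of the 10 genes, while 53.2% of all genes tested did not overlap. The median log2 fold change of the 10 genes was -0.52, beside -0.0081 over all genes tested. When counts were scaled by library totals alone, that overall median moved to 0.18.

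Sct encodes secretin, the classical S-cell hormone that makes the pancreas release bicarbonate. The study names Sct a marker of enteroendocrine cells in general, so its level cannot be read as that of S cells alone. Sct measured 37.1 CPM in C1, 53.9 in C3 and 36.8 in C3-3, and rose to 569 CPM in H1, 788 in H5 and 798 in H9. Every H library stood more than 10-fold above every control library. This amounted to a log2 fold change of 4.08 (SE 0.23, adjusted p = 6.9e-06, edgeR), or 16.9-fold, and stayed between 3.99 and 4.29 with each library left out. The gene lies on the minus strand of chromosome 7, 141278330 to 141279133 of GRCm38, with 645 bases of exon.

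Sst encodes somatostatin, the D-cell peptide that restrains the release of most other gut hormones. It measured 64.4 CPM in C1, 81.3 in C3 and 72.7 in C3-3, and fell to 3.12 CPM in H1, 4.90 in H5 and 5.82 in H9. The raw counts were 3861 to 4518 in the C libraries and 186 to 358 in the H libraries, so the low group still lay well above the floor. For Sst the log2 fold change was -3.98 (SE 0.25, adjusted p = 1e-05, edgeR), 15.8-fold lower. Leaving out each library gave -4.19 to -3.76. Sst lies on the minus strand of chromosome 16, 23889573 to 23890958 of GRCm38, with 721 bases of exon. Sct and Sst thus moved by close to the same factor in opposite directions.

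**Figure D1:**
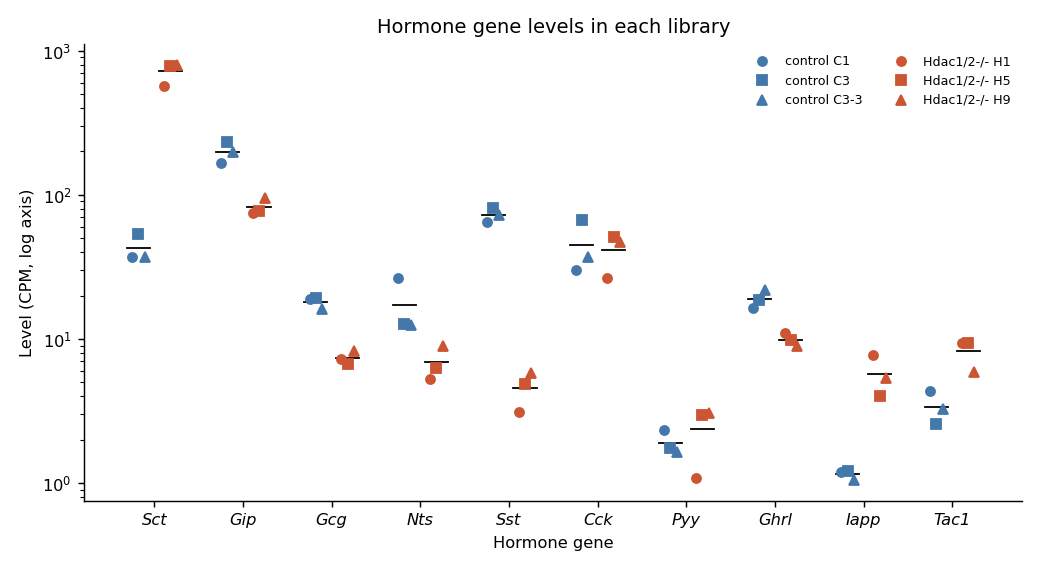
Level of each hormone gene (CPM, log axis) in the 3 control libraries (blue) and the 3 libraries labelled Hdac1/2-/- (orange), with 1 symbol per library and a black line at each group mean. Sct lies at 36.8 to 53.9 CPM in controls and at 569 to 798 CPM in the labelled libraries, Sst at 64.4 to 81.3 against 3.12 to 5.82 CPM, and Cck and Pyy overlap.

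Gip and Gcg encode the incretins, hormones that raise insulin release after a meal: GIP comes from Gip, and GLP-1 (with GLP-2) from the proglucagon gene Gcg. Gip measured 167, 231 and 198 CPM in C1, C3 and C3-3, and 74.5, 77.5 and 94.4 CPM in H1, H5 and H9. Gcg measured 19.0, 19.4 and 16.0 CPM in C1, C3 and C3-3, and 7.22, 6.77 and 8.32 CPM in H1, H5 and H9. Both genes were lower in every H library than in any control library, and by nearly equal amounts. The log2 fold change was -1.27 for Gip (SE 0.17, adjusted p = 0.00047, edgeR) and -1.28 for Gcg (SE 0.18, adjusted p = 0.00058, edgeR). With each library left out, Gip stayed between -1.38 and -1.15 and Gcg between -1.37 and -1.22.

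Nts encodes neurotensin, a peptide of N cells that slows gut movement and aids fat uptake. It measured 26.6 CPM in C1, 12.7 in C3 and 12.5 in C3-3, and 5.32 CPM in H1, 6.32 in H5 and 9.02 in H9. C1 held about double the level of the other control libraries, while C3 and C3-3 lay nearest to H9. The log2 fold change was -1.33 (SE 0.34, adjusted p = 0.014, edgeR). Without C1 it was -0.86, under the 2-fold limit with an adjusted p of 0.029. Without H1 or H5 the adjusted p was 0.058 and 0.060, and over all alternatives it ran from 0.00056 to 0.060 (edgeR, limma and DESeq2).

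Iapp encodes islet amyloid polypeptide, or amylin, best known as a partner of insulin in pancreatic beta cells and also made by gut endocrine cells. Its level was low in controls, at 1.19, 1.22 and 1.05 CPM in C1, C3 and C3-3, where the raw counts were 56 to 79. In H1, H5 and H9 it measured 7.75, 4.002 and 5.41 CPM, and H1 stood highest. Its log2 fold change was 2.31 (SE 0.31, adjusted p = 0.00053, edgeR), or 4.95-fold, and ranged from 2.03 to 2.51 with each library left out. Tac1 encodes the precursor of substance P and neurokinin A, made by serotonin-releasing enterochromaffin cells and by enteric neurons. It measured 4.35, 2.59 and 3.26 CPM in C1, C3 and C3-3, and 9.35, 9.32 and 5.95 CPM in H1, H5 and H9. H9 lay closest to the controls, but the groups did not overlap. The log2 fold change of Tac1 was 1.27 (SE 0.29, adjusted p = 0.0070, edgeR), with 1.11 to 1.496 when each library was left out.

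Ghrl encodes ghrelin, the appetite hormone made mostly in the stomach and by fewer cells along the intestine. It measured 16.5, 18.6 and 21.7 CPM in C1, C3 and C3-3, and 11.04, 9.79 and 8.94 CPM in H1, H5 and H9. All H libraries were lower than all controls, and the adjusted p was 0.0031 (edgeR), but the log2 fold change of -0.93 (SE 0.18) fell short of 2-fold. It passed 2-fold without C1 (-1.01) and without H1 (-1.01). In the annotation, 15.7% of the exon bases of Ghrl are shared with Gm44033 on the opposite strand, which drew 27 counts in all 6 libraries together, and 3 bases with the antisense gene Gm26982, which drew 464 counts. The use of strand in counting is not given in the sources used here.

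Cck encodes cholecystokinin, the I-cell hormone that contracts the gallbladder and signals satiety. It measured 29.9, 67.0 and 36.8 CPM in C1, C3 and C3-3, and 26.3, 51.1 and 46.8 CPM in H1, H5 and H9. The spread within each group was wider than the difference between the group means. The log2 fold change was -0.11 (SE 0.36, adjusted p = 0.83, edgeR), and its sign turned with scaling by library totals (0.087), without C3 (0.32) and without H1 (0.14). Pyy encodes peptide YY, the L-cell peptide that slows the gut after a meal. It measured 2.34, 1.75 and 1.64 CPM in C1, C3 and C3-3, and 1.09, 2.97 and 3.09 CPM in H1, H5 and H9. H1 was the lowest library of all and H9 the highest, so the H group surrounded the controls. For Pyy the log2 fold change was 0.31 (SE 0.41, adjusted p = 0.58, edgeR), with 0.082 to 0.67 when each library was left out.

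**Figure D2:**
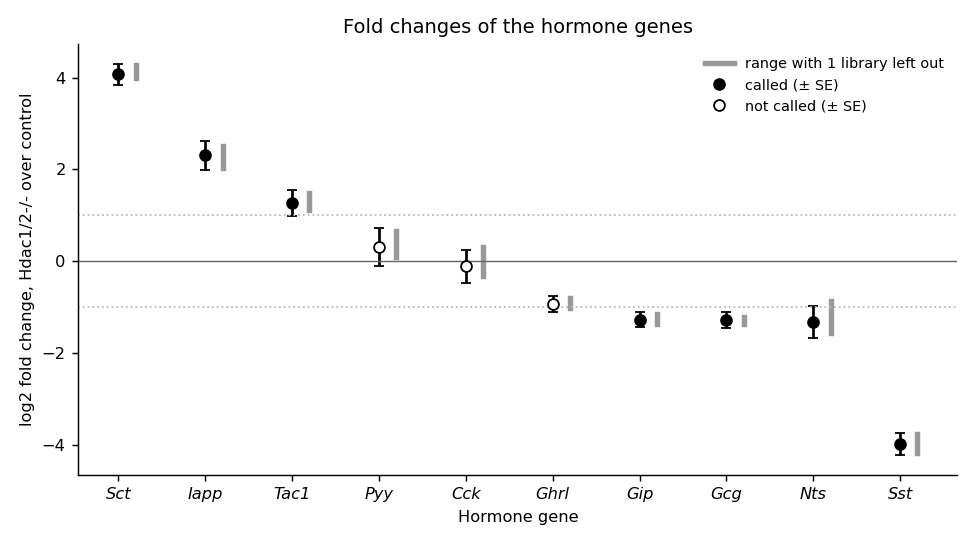
log2 fold change of each hormone gene, H libraries over controls, as points with the standard error (filled where called), beside a grey bar for the range with 1 library left out. Sct (4.08), Iapp (2.31) and Tac1 (1.27) lie above the dotted 2-fold line, and Gip, Gcg, Nts and Sst lie below the lower one, which the grey bar of Nts crosses.

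To set levels of different genes side by side, CPM was divided by exon length in kilobases (RPKM, from the union of annotated exons). In control libraries Gip stood highest, at 289 ± 46.7 RPKM (SD, n = 3), followed by Sst at 101 ± 11.7, Sct at 66.03 ± 15.1 and Cck at 34.2 ± 15.1. Ghrl (17.6 ± 2.41), Nts (13.8 ± 6.49) and Gcg (12.1 ± 1.22 RPKM) came next, and the ranges of neighbours in that trio overlapped. Pyy (3.02 ± 0.60), Iapp (1.19 ± 0.093) and Tac1 (0.99996 ± 0.26 RPKM) were lowest, and the ranges of Iapp and Tac1 overlapped. In the H libraries the order changed. Sct led with 1113 ± 200 RPKM, ahead of Gip at 120 ± 15.6. Cck at 31.7 ± 10.2 and Ghrl at 9.20 ± 0.98 RPKM followed without overlap. Sst dropped to 6.40 ± 1.90 RPKM, beside Iapp at 5.87 ± 1.94, Nts at 5.52 ± 1.54, Gcg at 4.98 ± 0.54, Pyy at 3.78 ± 1.78 and Tac1 at 2.41 ± 0.58. Each neighbouring pair among these last 6 genes overlapped.

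The composition of hormone RNA shifted from Gip to Sct. Sct made up 12.3%, 13.3% and 10.98% of the summed RPKM of the 10 genes in C1, C3 and C3-3, and 84.3%, 86.6% and 85.2% in H1, H5 and H9. Gip made up 51.8%, 53.4% and 55.5% in C1, C3 and C3-3, and 10.4%, 7.9996% and 9.47% in H1, H5 and H9. Sst went from 18.8 ± 0.76% to 0.484 ± 0.072%. The group values did not overlap for 9 of the 10 shares, and the exact permutation test (2-sided) gave p = 0.10 for each of those, the smallest value that 3 libraries against 3 allow. For the share of Tac1 the same exact permutation test gave p = 0.90. The 9 include Cck and Pyy, whose levels overlapped, since the gain of Sct weighs on every other share. No value over all genes stands beside this count, because shares were taken within the 10 genes. The summed level of all 10 genes rose from 539 ± 82.0 to 1303 ± 223 RPKM, and without Sct it fell from 473 ± 67.9 to 189 ± 24.9 RPKM.

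Shares add up to a whole, so the gain of Sct weighs on all others, and the shares were also taken without it. Among all 10 genes only Iapp gained share beside Sct, from 0.223 ± 0.034% to 0.478 ± 0.25%, a gain that was 0.11 percentage points without H1. The share of Gip was then 61.0 ± 1.70% in controls and 63.2 ± 3.17% in the H libraries, with overlap. Gcg (2.60 ± 0.44% and 2.64 ± 0.27%) and Nts (3.07 ± 1.84% and 2.88 ± 0.43%) likewise kept overlapping shares. Sst lost share, from 21.4 ± 0.62% to 3.33 ± 0.61%, and Cck gained, from 7.03 ± 2.08% to 16.6 ± 4.24%. The shares of Pyy (0.657 ± 0.21% to 1.94 ± 0.78%), Iapp (0.254 ± 0.038% to 3.20 ± 1.43%) and Tac1 (0.219 ± 0.087% to 1.31 ± 0.44%) were also higher in every H library, each with p = 0.10 in the exact permutation test. The sum without Sct itself fell from 473 to 189 RPKM, so a gene with an unchanged level gains share in it. The levels of Cck and Pyy did not pass the test (adjusted p = 0.83 and 0.58, edgeR).

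**Figure D3:**
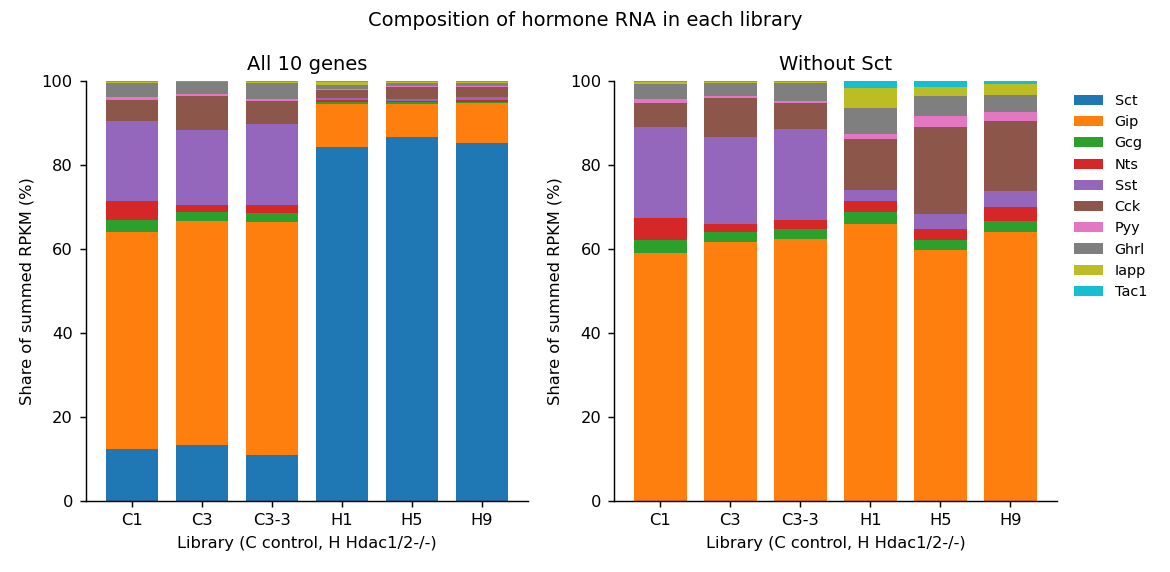
Share of each hormone gene in the summed RPKM (%) of each library, for all 10 genes (left) and without Sct (right). Sct takes 10.98% to 13.3% in control libraries and 84.3% to 86.6% in H libraries, and without it Gip keeps the largest share in all 6 while Sst shrinks from 21.4% to 3.33% on average.

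Ratios between pairs of hormones do not depend on how libraries are scaled. The pairs below were chosen after their values were seen and are given with no test. The ratio of Sct to Gip, in RPKM, was 0.237, 0.249 and 0.198 in C1, C3 and C3-3, and 8.13, 10.8 and 8.998 in H1, H5 and H9. The ratio of Gip to Gcg was 24.0 ± 4.27 in controls and 24.0 ± 1.36 in the H libraries. Gcg and Pyy, both products of L cells, parted: the ratio of Gcg to Pyy was 3.43, 4.68 and 4.14 in C1, C3 and C3-3, and 2.79, 0.961 and 1.14 in H1, H5 and H9.

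The starts of these genes are shown for the 2 members of each direction with the highest level per exon length, Sct and Iapp among the hormones called higher and Gip and Sst among those called lower. RefSeq promoter entries were found for all 10 genes. Each line gives the 250 bases before the RefSeq start (GRCm38.p6), 5′ to 3′ on the gene's own strand. Capitals mark the motifs searched on both strands: the E-box CANNTG, the GC box GGGCGG, the TATA box TATAAA, the cyclic AMP response element (CRE) TGACGTCA and its core TGACG, which lies inside the CRE.
Sct, chr7:141279134-141279383, minus strand: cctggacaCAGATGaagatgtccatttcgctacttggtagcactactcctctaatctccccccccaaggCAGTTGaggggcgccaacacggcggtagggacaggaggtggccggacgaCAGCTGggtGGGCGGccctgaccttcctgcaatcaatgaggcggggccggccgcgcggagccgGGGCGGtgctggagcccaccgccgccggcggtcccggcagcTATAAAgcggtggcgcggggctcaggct
Iapp, chr6:142298175-142298424, plus strand: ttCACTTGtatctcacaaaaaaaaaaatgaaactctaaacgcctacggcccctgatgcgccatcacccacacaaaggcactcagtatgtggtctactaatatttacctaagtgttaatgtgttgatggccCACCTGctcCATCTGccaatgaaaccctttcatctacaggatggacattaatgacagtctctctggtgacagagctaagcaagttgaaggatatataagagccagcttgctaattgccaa
Gip, chr11:96024295-96024544, plus strand: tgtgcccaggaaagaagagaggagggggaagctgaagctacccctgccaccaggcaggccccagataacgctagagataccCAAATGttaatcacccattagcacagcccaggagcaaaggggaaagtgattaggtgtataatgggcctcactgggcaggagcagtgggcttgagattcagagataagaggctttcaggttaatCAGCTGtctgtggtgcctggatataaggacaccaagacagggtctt
Sst, chr16:23890845-23891094, minus strand: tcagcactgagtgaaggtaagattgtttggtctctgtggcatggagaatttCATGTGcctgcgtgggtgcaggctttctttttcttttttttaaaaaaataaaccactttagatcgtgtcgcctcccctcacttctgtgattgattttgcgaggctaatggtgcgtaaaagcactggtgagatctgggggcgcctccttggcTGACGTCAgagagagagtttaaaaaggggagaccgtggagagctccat

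The window of Sst reaches 114 bases into the longer gene model of GENCODE, and that of Iapp 2 bases. Of the 4, Sct has the highest GC content, at 68.0%, against 52.0% for Gip, 47.2% for Sst, 42.8% for Iapp and a mean of 53.2% over the 32841 promoter entries of full length. Sct holds 3 E-boxes, 2 GC boxes and 1 TATA box, whose first base lies 28 bases before the start. Sst holds 1 CRE, 48 bases before the start, and 1 E-box. Gip holds 2 E-boxes and Iapp holds 3, with none of the other motifs in either. Among all entries, 66.2% hold an E-box, 32.7% a GC box, 12.4% the TATA box, 17.8% the CRE core and 1.55% the whole CRE. A match is a description of the letters, and no binding was measured here.

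The 5 genes whose profile over the 6 libraries lay nearest to that of Sct were Gltpd2, Nlgn2, Zfp651, Cdkn1c and Ambp. Nearness was the root mean square distance of log2 CPM centred on each gene's mean, among 10761 other tested genes whose log2 CPM averaged 1 or more. The distances were 0.165 for Gltpd2 and 0.213 for Ambp. Cdkn1c, which encodes the cell cycle inhibitor p57, measured 6.48, 12.2 and 10.03 CPM in C1, C3 and C3-3, and 148, 196 and 200 CPM in H1, H5 and H9. Nearest to Sst were Acot12, Tymp, Gstm2, Fras1 and Iyd, at distances of 0.187 to 0.264. Acot12, an acetyl-CoA hydrolase, measured 51.0, 59.5 and 77.8 CPM in C1, C3 and C3-3, and 3.01, 4.66 and 5.53 CPM in H1, H5 and H9. None of these 10 genes is in the lists of hormone-related genes. Over 6 libraries in 2 groups such profiles mostly record a group difference of equal size.

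Genes that enteroendocrine cells share were taken as 7 lists. Beside the counts of each list here and below, 12.4% of all genes tested were called higher and 12.7% lower. Of the 17 genes for granules and prohormone processing, 3 were called higher, 2 were called lower and 12 were not called, with a median log2 fold change of -0.44. Chga, the general granule marker chromogranin A, measured 140, 113 and 125 CPM in C1, C3 and C3-3, and 95.6, 150 and 138 CPM in H1, H5 and H9. The log2 fold change of Chga was 0.023 (SE 0.19, adjusted p = 0.93, edgeR), with a sign that turned without C3, H5 or H9. By contrast, the study's quantitative PCR on enriched jejunal IEC, set against Pbgd, reported Chga as increased. Chgb, chromogranin B, measured 219 to 260 CPM in controls and 287 to 391 CPM in the H libraries, a log2 fold change of 0.52 that did not reach 2-fold.

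The enzymes that mature the precursors did not move together. Pcsk1, the convertase that cuts proglucagon to GLP-1, measured 19.6, 11.3 and 23.6 CPM in C1, C3 and C3-3, and 4.75, 5.34 and 5.79 CPM in H1, H5 and H9. Its log2 fold change was -1.78 (adjusted p = 0.0011, edgeR). Pam, which amidates the ends of peptides such as secretin, was also called lower (-1.07), and of these genes only Pcsk1 kept its call when counts were scaled by library totals. Cpe, the carboxypeptidase that trims the cut ends, measured 20.3, 16.9 and 13.4 CPM in C1, C3 and C3-3, and 50.02, 35.9 and 39.3 CPM in H1, H5 and H9, a log2 fold change of 1.31 (SE 0.20, adjusted p = 0.00098, edgeR). Vgf (2.22) and Ptprn (1.15), both of granules, were called higher as well. Pcsk2, the convertase that makes glucagon in the pancreas, had only 5 to 19 counts per library and was not called (adjusted p = 0.19, edgeR). Scg5, a chaperone of Pcsk2, had a log2 fold change of -0.81 and was not called.

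Each hormone was also set against Chga as a log2 ratio of CPM, which places it beside a granule gene in the same library. The ratio of Sct to Chga was -1.91, -1.06 and -1.76 in C1, C3 and C3-3, and 2.57, 2.39 and 2.53 in H1, H5 and H9, a difference of 4.08. The ratio of Sst to Chga was -1.12, -0.47 and -0.78 in C1, C3 and C3-3, and -4.92, -4.93 and -4.56 in H1, H5 and H9, a difference of -4.01. The differences were -1.27 for Gip, -1.28 for Gcg, -1.26 for Nts, -0.93 for Ghrl, 2.22 for Iapp and 1.26 for Tac1. For these 8 hormones the groups did not overlap (exact permutation p = 0.10, 2-sided, the smallest possible), as was true for 40.5% of all other genes tested when set against Chga in the same way. For Cck the difference was -0.080 (exact permutation p = 0.90) and for Pyy 0.19 (exact permutation p = 0.60). With the mean of Chga, Chgb, Scg5 and Cpe as the reference, the difference was 3.82 for Sct and -4.27 for Sst.

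Of the 7 genes for serotonin, the amine of enterochromaffin cells, none was called by edgeR, and 2 had an adjusted p of at most 0.05 (Ddc, at -0.98, and Maoa, at -0.90). Without C1 or without H9, 1 gene of this list was called lower. Tph1, the rate-limiting enzyme of serotonin synthesis, measured 13.3, 11.5 and 12.9 CPM in C1, C3 and C3-3, and 19.1, 18.03 and 14.4 CPM in H1, H5 and H9. Its log2 fold change was 0.45 (SE 0.17, adjusted p = 0.069, edgeR). The median of the list was -0.27.

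Among 26 transcription factors of the enteroendocrine lineage, 25 were tested. Of these 2 were called higher, none was called lower, and the median log2 fold change was -0.085. A further 3, named after their values were seen, had an adjusted p under 0.05 (edgeR) without reaching 2-fold: Atoh1 (-0.81), Gfi1 (-0.81) and Rfx3 (0.79). Neurog3, the factor that commits cells to the lineage, measured 2.51, 1.87 and 2.31 CPM in C1, C3 and C3-3, and 3.02, 2.16 and 1.24 CPM in H1, H5 and H9. Neurod1, which acts after it, measured 1.91 to 2.94 CPM in controls and 1.63 to 2.32 CPM in the H libraries. Neither passed the test (adjusted p = 0.91 for Neurog3 and 0.57 for Neurod1, edgeR), and the log2 fold change of Neurog3 (-0.059) became 0.14 under scaling by library totals and also turned sign without C1 or H9. Rcor2, a corepressor of the LSD1 complex, was called higher, at 1.36, 0.702 and 1.15 CPM in C1, C3 and C3-3 and 15.3, 17.4 and 11.6 CPM in H1, H5 and H9. Its log2 fold change was 3.78 (SE 0.31, adjusted p = 4e-05, edgeR). Hhex, a homeobox factor of somatostatin cells in the pancreas, was called higher too, with a log2 fold change of 1.95 (SE 0.41, adjusted p = 0.0052, edgeR), while Sst fell.

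**Figure D4:**
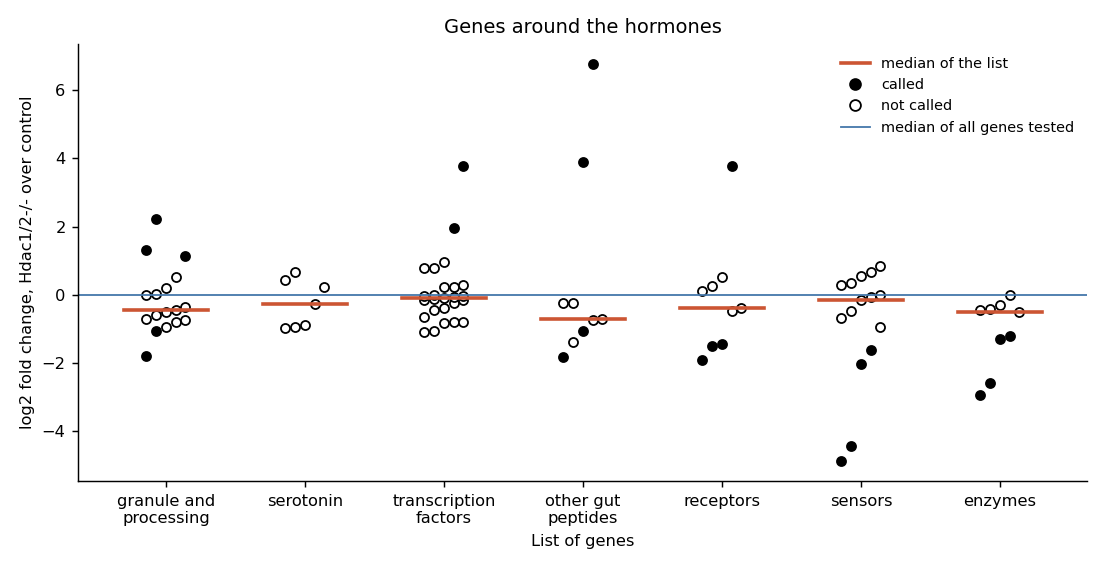
log2 fold change (H libraries over controls) of each tested gene in the 7 lists around the hormones, filled where called, with the median of each list in orange and that of all genes tested in blue. The median of the transcription factors is -0.085, with Rcor2 (3.78) and Hhex (1.95) called higher, and all called enzymes and sensors lie below 0.

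Of 21 other gut peptide genes, 11 have a row in the table used here and 9 were tested. Penk and Trh were called higher and Nmu and Guca2b lower, and the median of the list was -0.72. Penk, the precursor of enkephalins, had 3, 2 and 0 counts in C1, C3 and C3-3, at or under the floor, and 241, 172 and 134 counts in H1, H5 and H9. Trh, the precursor of thyrotropin-releasing hormone, had 0 to 3 counts in controls and 9 to 32 counts in the H libraries. Guca2b, uroguanylin, is made far beyond endocrine cells and measured 2186 to 2554 CPM in controls against 752 to 1361 CPM in the H libraries. Its log2 fold change of -1.05 fell short of 2-fold with scaling by library totals (-0.88), without C3-3 (-0.98) and without H1 (-0.83). Nmu, neuromedin U, had 15 to 38 counts in controls and 5 to 9 in the H libraries, and its call was lost without C3-3, H1, H5 or H9.

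The receptors of these hormones were mostly near the floor in epithelium. Of 27 receptor genes, 15 have a row in the table used here and 9 were tested. Glp1r, Sstr3 and Ramp1 were called lower, Gcgr was called higher, and the median log2 fold change was -0.40. Ramp1, a partner protein in amylin and CGRP receptors, measured 10.2, 6.91 and 9.26 CPM in C1, C3 and C3-3, and 3.13, 3.24 and 3.43 CPM in H1, H5 and H9. Its log2 fold change was -1.43 (SE 0.23, adjusted p = 0.0013, edgeR). Glp1r, the receptor of GLP-1, measured 0.725 to 1.35 CPM in controls and 0.297 to 0.471 CPM in the H libraries, and its log2 fold change of -1.49 was no longer called without C3 or H1. Sstr3, a somatostatin receptor, had a log2 fold change of -1.90 and lost its call without C1, H5 or H9. Gcgr, the glucagon receptor, had 0 to 2 counts in controls and 10 to 21 counts in the H libraries.

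The other tested receptors were not called. They are the somatostatin receptors Sstr1 (-0.40), Sstr2 (0.52) and Sstr5 (0.10), the GIP receptor Gipr (-0.47) and Sort1 (0.25), as log2 fold changes. Sort1, which binds neurotensin, was the most abundant receptor per length, at 157 to 178 CPM in controls and 183 to 229 CPM in the H libraries. Npy1r, Glp2r, Tacr1, Ramp2 and Ramp3 had at most 14 counts in any library and were not tested. Ntsr2, a neurotensin receptor, had 0 counts in all controls and 2, 16 and 17 counts in H1, H5 and H9, and was not tested.

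Of the nutrient sensors, 15 of 21 were tested, none was called higher and 4 were called lower, with a median of -0.16. Cd36, a fatty acid receptor that enterocytes carry too, measured 190 to 281 CPM in controls and 6.66 to 10.6 CPM in the H libraries, a log2 fold change of -4.88 (SE 0.25, adjusted p = 4.1e-06, edgeR). Ffar3, a receptor for short-chain fatty acids, had 35 to 73 counts in controls and 1 to 4 in the H libraries. Tas1r3, a subunit of the sweet and umami receptors, was also called lower (-2.02, but -2.77 without H1). Ffar1, a receptor for long-chain fatty acids, was called lower (-1.63, but -2.43 without H9), though not without C1, C3-3, H1 or H5.

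Of 9 enzymes that activate or break down these peptides, 4 were called lower and none was called higher, with a median of -0.49. Dpp4, the protease that inactivates GLP-1 and GIP, measured 643, 564 and 713 CPM in C1, C3 and C3-3, and 79.0, 118 and 122 CPM in H1, H5 and H9. That is a log2 fold change of -2.59 (SE 0.21, adjusted p = 3.7e-05, edgeR). Ace (-2.94), Mme (-1.28) and Enpep (-1.21), peptidases of the brush border, were called lower as well. Mboat4, which attaches the fatty acid that activates ghrelin, had 2 to 19 counts per library and was not called (adjusted p = 0.73, edgeR).

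Markers of other cells moved with the groups, and their part in the hormone results was not tested. All 7 Paneth cell markers were called lower, and their summed level went from 5274, 3286 and 3540 CPM in C1, C3 and C3-3 to 273, 280 and 181 CPM in H1, H5 and H9. The most abundant per length was Defa24 (-5.13 as log2 fold change), a member of a family of near-identical defensin genes whose reads may be split between copies. The others were Lyz1 (-4.83), Ang4 (-5.33), Pla2g2a (-4.11), Itln1 (-3.29), Mptx2 (-2.28) and Mmp7 (-1.16), and Mmp7 lost its call under scaling by library totals and without C1, H5 or H9. Among enterocyte genes, Lct, Fabp2, Apoa4 and Slc15a1 were called lower and Alpi higher, whose call was lost without C1, C3-3, H1 or H5. Apoa1 had a log2 fold change of -0.78.

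Goblet cell markers were called lower for 3 of 7 (Zg16, the most abundant per length, with Tff3 and Spink4, the last not without C1 or under scaling by library totals), and their sum went from 19790 ± 1313 to 9904 ± 3568 CPM. Of 6 tested tuft cell markers, 5 were called lower (Dclk1, Pou2f3, Avil, Gfi1b and Sh2d6), Gfi1b not without C3, H1 or H9, while Trpm5 was called higher. The crypt stem cell markers Olfm4 (-1.58) and Lgr5 (-1.54) were called lower. The 7 epithelial markers summed to 12296 ± 906 CPM in controls and 9847 ± 1053 CPM in the H libraries, without overlap. Krt8, the most abundant per length, measured 2666 to 3035 CPM in controls and 2654 to 3201 CPM in the H libraries, with a sign that turned without C1 or H9. Epcam (-0.62) and Krt20 (-0.57) had adjusted p of 0.017 and 0.032 (edgeR) but did not reach 2-fold, and were named after their values were seen. Krt18 was the only one of the 7 to be called (1.02), though it missed 2-fold without C3 (0.98) or H5 (0.95).

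Smooth muscle genes varied among the controls. Myh11 measured 25.4 CPM in C1, 12.6 in C3 and 0.452 in C3-3, and had 1, 0 and 0 counts in H1, H5 and H9. Acta2 and Des were likewise high in C1 and C3 and low in C3-3. All of these were called lower, Myh11 and Des not without H1 or H9, and the list of 7 summed to 59.0, 42.5 and 3.16 CPM in C1, C3 and C3-3, and 2.51, 1.97 and 6.36 CPM in H1, H5 and H9.

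Enteric neurons make Tac1 and Sst too. Of their 11 markers, 9 have a row in the table used here and 5 were tested, and the summed level was 7.53, 7.31 and 4.403 CPM in C1, C3 and C3-3, and 12.1, 12.7 and 10.2 CPM in H1, H5 and H9. Tubb3 was called higher (2.81). Ret, the largest part of the neuronal sum, was higher in every H library (0.78, adjusted p = 0.044, edgeR) but short of 2-fold. Prph (0.56) and Snap25 (0.39) were not called. Uchl1 (-0.80) overlapped between the groups and was not called, and Chat, not tested, measured 0.151 to 0.18 CPM in controls and at most 0.0135 CPM in the H libraries. With no filter on low counts, 1 gene of this list was called lower. Elavl3 and Stmn2 had at most 9 counts in any library. The 3 glial markers with a row summed to less than 1 CPM in every library, led by S100b. For Iapp, the islet genes Ins1, Ins2, G6pc2 and Slc30a8 have no row in the table used here, which lists no gene with fewer than 10 counts over the 6 libraries. The pancreatic exocrine genes Cela1 (1.24) and Ctrb1 (3.57, but 4.77 without C3) were called higher. The pancreatic list summed to 7.84 ± 2.20 CPM in controls and 21.2 ± 4.35 CPM in the H libraries. Most of that sum was Cela1, with means of 6.76 CPM in controls and 15.96 CPM in the H libraries. Prss2, Cpa1, Cela2a and Pnlip overlapped between the groups, measured 0 CPM in H9 and were not called. The part of these cells in the levels of Tac1 and Iapp was not tested.

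Gastric markers, relevant to ghrelin, summed to 2.05 ± 0.93 CPM in controls and 1.52 ± 0.28 CPM in the H libraries, led by Pgc. Of the 8 gastric genes only 2 were tested and neither was called by edgeR, while with no filter on low counts 7 were tested, 1 of them called higher and 1 lower. Lymphocyte markers summed to 334 ± 140 CPM in controls and 117 ± 41.6 CPM in the H libraries. Their most abundant gene per length, Gzma, was not called in the main fit. It was called lower under 4 of 16 alternatives, among them without C1. The calls of Cd3g and Cd8a as lower were lost without C3, C3-3, H1 or H5 (that of Cd8a also without H9). Myeloid markers summed to 10.04 ± 1.68 and 20.8 ± 7.05 CPM, with Csf1r (1.75) called higher and Lyz2, the most abundant per length, not called. Endothelial markers, led by Pecam1, summed to 1.68 ± 0.48 and 2.15 ± 0.75 CPM. Marker genes of gut regions bear on where along the intestine the cells came from. Gata4, the most abundant per length of the proximal list, measured 166 to 206 CPM in controls and 161 to 182 CPM in the H libraries, and the proximal iron gene Cybrd1 was called higher (3.12, but 4.15 without C3). In the distal list Slc51b was not called, and the ileal bile acid transporter Slc10a2 was called higher (2.48, but 3.27 without C1), though not without C3-3, H1 or H9.

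**Figure D5:**
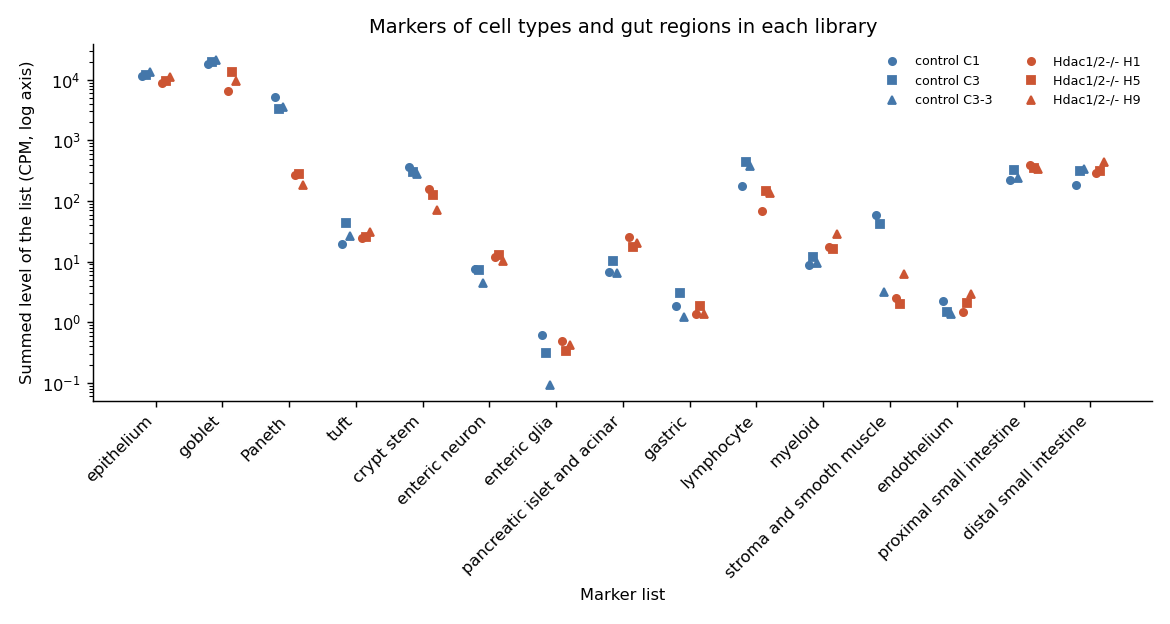
Summed level of marker lists (CPM, log axis) in the 3 control libraries (blue) and the 3 libraries labelled Hdac1/2-/- (orange), with 1 symbol per library. The enterocyte and colon lists are not drawn. Paneth cell markers fall from 3286 or more to 280 CPM or less, smooth muscle markers are high only in C1 and C3 (59.0 and 42.5 CPM), and neuronal, glial, gastric and endothelial sums stay under 13 CPM.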

How the data were processed

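RNA of jejunal epithelial cells from 3 control mice and 3 mice labelled villin-Cre Hdac1-/-; Hdac2-/- was sequenced as 1 library per mouse. The deposited table holds raw read counts per gene, which the authors made by aligning reads with STAR 2.4.0f1 after bcl2fastq 1.8.4. The submitters' processing notes name the genome build mm9 and the study's methods name GRCm38, and the counting program and its strand setting are not given. Its 6 normalized per-sample columns and its comparison columns (log2 fold change, mean log2 CPM and p-values of DESeq and edgeR) were not used.

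Counts were filtered by filterByExpr, scaled by TMM and tested by edgeR 4.0.16 (robust quasi-likelihood, prior count 0.125) in R 4.3.3, with Benjamini-Hochberg adjustment over 15618 genes. Shares and ratios were compared by 2-sided exact permutation in Python 3.11.15 (numpy 2.4.6), and figures drawn with matplotlib 3.10.9. Positions and exon lengths came from GENCODE mouse release 21 by Ensembl identifier, and promoter letters from RefSeq. The alternatives were DESeq2 1.42.0 (size factors, Wald test), limma 3.58.1 voom, library totals, other filters, thresholds and prior counts, and leaving out each library. The members and lists were chosen with earlier results of these data known. Genes named are the members, a fixed set of lineage, granule and processing genes, the receptors, up to 4 called genes per related list, the called markers and those most abundant per length over all 6 libraries, and the 5 genes most like Sct and Sst. Further members of the lists were named after their values were seen.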

Additional observations from a re-analysis of the deposited data

How the results depend on the processing

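Of the 10 hormone genes, 7 kept their direction and side of the threshold under all 16 alternatives, and 150 of 160 values were the same, 4 weaker, 3 stronger and 3 reversed. Among 94 results on other named genes, 65 were alike throughout. Members called higher stayed at 3. With counts scaled by library totals, log2 fold changes were 0.087 for Cck, 0.12 for Gata4, 0.0069 for Hdac2 and 0.14 for Neurog3, and the median over all genes tested was 0.18. With no fold limit, 3198 genes were higher and 3168 lower, and Ghrl (-0.93) was called. With the stricter limit of 0.01 on adjusted p, Nts (-1.33) was not. In the sum without Sct, differences in share were 2.18 percentage points for Gip, 0.044 for Gcg, 9.52 for Cck, 1.28 for Pyy, 1.21 for Ghrl and 1.09 for Tac1. With no length correction and Sct kept in the sum, the difference in the share of Tac1 was 0.12 percentage points. Against 4 reference genes in place of Chga, the log2 ratio of Pyy differed by -0.064. Leaving out each library gave log2 fold changes of -0.32 to 0.32 for Cck, -0.10 to 0.20 for Chga, -0.13 to 0.026 for Gata4, -0.042 to 0.091 for Krt8, -0.63 to 0.13 for Mboat4, -0.40 to 0.23 for Neurog3, -0.10 to 0.32 for Sstr5, -1.57 to -0.86 for Nts and -1.01 to -0.81 for Ghrl. Leaving out libraries for shares and ratios was chosen after seeing the data: it gave -0.40 to 0.34 for the log2 ratio of Cck to Chga, -0.036 to 0.040 percentage points for the share of Tac1 and -0.14 to 0.11 for the log2 ratio of Gip to Gcg. For all of these the cause was not tested. Requiring at least 10 counts in every library removed Penk, Trh and Gcgr, with 0 to 3 counts in controls, before the test. It also removed the called genes Ffar1, Ffar3, Tas1r3, Sstr3, Nmu, Dclk1, Sh2d6, Gfi1b, Acta2, Myh11, Des and Ctrb1. Pcsk2, Mboat4, Gipr and S100b, which were not called, were removed as well. No paired analysis was possible because the groups share no replicate codes. With 3 mice per group and bulk RNA, litter and cell numbers were not separated from genotype. Sex was not modelled, but leaving out C3, the 1 male-pattern library, left only libraries without that pattern.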
